A study of Drosophila melanogaster with 4 samples.

Results

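Binding sites of the nuclear receptor Ultraspiracle (Usp) on arm 3L of the *Drosophila melanogaster* genome are described here, apart from those at 5 stretches of the arm that hold well-known ecdysone-regulated loci. The sites are the peaks that the authors called on 3L, taken by position alone: peaks with a midpoint in 9360000-9396000, 17550000-17620000, 17900000-18070000, 18150000-18450000 or 18730000-18830000 (FlyBase release 5) were left out. Those windows hold loci such as the small heat shock genes, *Eip74EF*, *Eip75B*, the cell death genes and *ftz-f1*, and 17, 39, 78, 3 and 12 peaks in the order given. Of 814 peaks on 3L, 665 remained, which is 22.4% of the 2970 peaks on the 6 chromosome arms and 21.8% of the 3053 peaks of the whole list.

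The series compared chromatin pulled down with an anti-GFP antibody (rabbit, polyclonal; 2 ChIP libraries) with input DNA (2 libraries), both from wandering larvae raised at 25 °C and fixed in 1.8% formaldehyde for 15 min. All libraries came from the strain USP-GFP, which carries a transgene of the *usp* genomic coding region at the docking site VK00033 and is labelled L3, sex unknown. The protocol speaks of *y; bw cn sp* flies instead, and whether the endogenous *usp* gene was intact is not given in the labels. The reference was input, and no immunoprecipitation from larvae without the tag was analysed here. The authors' list has 1 score per peak and no value per library, so no peak has a replicate spread, and read depth is unknown. For the same reason no comparison between groups of peaks was tested: values of other arms are set beside those of 3L as a description. A weak peak shared by most cells of the larva and a strong one in few cells cannot be told apart in such a list.

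Usp is the fly relative of the vertebrate RXR receptors. It pairs with the ecdysone receptor EcR, and the pair binds DNA both with and without the steroid 20-hydroxyecdysone, switching from repression to activation when the hormone binds. Wandering larvae are close to the large hormone pulse that starts metamorphosis, when puffs on the polytene chromosomes mark early target genes that code for transcription factors and then late genes that those factors control. The docking site VK00033 itself lies on 3L. Genes at the peaks are not named, since the annotation used here follows Release 6 and positions were not converted, and for the same reason no sequence is shown.

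On 3L, Usp peaks outside the named loci were mostly narrow, modest in height and grouped, much as on the other arms. The median peak was 318 bp wide (interquartile range 246 to 457 bp) with a score of 11.8 (10.1 to 15.6), and 517 of the 665, 77.7%, lay within 5 kb of another. On the other arms the medians were 323 bp and 12.2, and the share was 79.5%. The 11 largest groups held 10 to 33 peaks each. In 7 of them even the lowest and the highest of the peaks that could be given a fold had overlapping intervals of fold. None of the 10 highest scores of the set was in one of the 11, though the score ranked 12, 46.0, was. Of the 10 widest peaks, 4 were. The 11 held 24.2% of all 665 peaks, and these small counts were not tested against that share.

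The deposited score, whose definition is not stated, could be read as an enrichment for most of these peaks. Across the whole list, the 52 score values that were each shared by at least 10 peaks matched −log10 of a Poisson probability, that of finding at least a given whole number of fragments where 43.9 are expected. The background was chosen to make the mean mismatch of these values smallest, and that mismatch was 0.00299. Scores of the 3L peaks entered this fit, so their match is not an independent check of it. On 3L outside the named loci, 506 peaks, 76.1% (exact 95% interval 72.7 to 79.3%), lay within 0.01 of this series, against at most 12.3% with 85 other backgrounds tried. The 3L share of 76.1% was close to that of the other arms, 75.4% (73.5 to 77.2%). Over the whole list, which includes the 3L peaks, it was 74.4%. For the 506 peaks on the series, the fold below is the implied fragment pileup over the background. Its exact 95% Poisson interval reflects counting error alone. The median fold was 2.26 (interquartile range 2.12 to 2.48), and the range was 1.82 to 5.51. The other 159 peaks have no fold at this tolerance. They had a median score of 11.0 against 12.2 for the peaks on the series, and 36 of them missed it by less than 0.015. Peaks at the shared scores 8.19 and 9.77 are among those off the series, and both scores are below 11.0. The tolerance therefore bears on this difference in medians.

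Most peaks of this set were grouped. Of the 665 peaks, 77.7% had another within 5 kb, edge to edge, against 79.5% of the 2156 peaks on the other arms. Over all arm peaks the share was 80.1%, so 3L outside the named loci was close to the background. Joining peaks at gaps of up to 5 kb gave 257 regions on 3L. Of these, 148 were single peaks, 42 were pairs, 56 held 3 to 9 peaks and 11 held 10 or more. The 11 largest held 161 peaks, 24.2% of the set, in 202 kb. On the other arms, 41 of 800 regions were that large, and they held 27.0% of the peaks.

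The region with most peaks ran from 8667807 to 8703846, with 33 peaks in 36.0 kb, of which they covered 48.6%. Its scores lay between 7.03 and 25.7, with a median of 13.3. With a joining distance of 1 kb, 26 of the 33 peaks fell into 2 dense blocks. The distal block, from 8674697 to 8685345, held 11 peaks that covered 82.6% of its 10.6 kb. The next block, from 8686660 to 8698096, held 15 peaks that covered 57.8% of 11.4 kb. The remaining peaks were spread on either side of these blocks.

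Within those blocks, breadth and height did not fall on the same peak. The strongest peak, 8685003 to 8685345, spanned only 343 bp at 2.98 times the background (2.50 to 3.54). The widest, 8679561 to 8681312, spanned 1752 bp and reached 2.57 times (2.12 to 3.10), an interval that overlaps that of the strongest. In all, 5 of the 33 peaks were wider than 1 kb, all 5 inside the dense blocks. A peak outside the region, 10.4 kb beyond its end at 8714212 to 8714588, had a higher score (42.0) than any inside it, but was off the Poisson series.

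The second region, 10658626 to 10678189, held 19 peaks in 19.6 kb and was bordered by 283 kb without a peak on one side and 67.1 kb on the other. Its strongest peak was the first one, 10658626 to 10659411, at 3.28 times the background (2.77 to 3.86). The next strongest, 10671154 to 10671816, stood at 3.03 times (2.54 to 3.59) and opened a block of 10 peaks that covered 64.6% of 7.04 kb. The 2 strongest peaks were therefore over 10 kb apart, with weaker peaks between them.

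Outside the named loci, peaks were most crowded at the start of the bin from 16 to 17 Mb, where several regions followed each other. This ranking does not count the left-out windows, and that from 17900000 to 18070000 held 78 peaks. The window from 16100001 to 16200000 held 37 peaks in 6 regions, covering 16.3 kb. Its largest region, 16138545 to 16161755, had 17 peaks that covered 32.7% of 23.2 kb, with a highest score of 21.9 off the series. The 2 regions after it, 16168852 to 16177094 and 16183710 to 16190180, had 7 peaks each. The strongest peak of the window was in the last of these, 16188478 to 16188861, at 3.42 times the background (2.89 to 4.01). A further region, 16032133 to 16043547, had 14 peaks in 11.4 kb, or 12.3 per 10 kb, the highest density of the 11 large regions. Its peaks were low, with a maximum of 2.60 times the background (2.14 to 3.12).

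One large region did hold one of the highest folds. The region 15523231 to 15540103 had 13 peaks, and its peak 15525840 to 15527206, with a width of 1367 bp, stood at 3.85 times the background (3.29 to 4.48). The next highest there, 15528010 to 15528251, was 242 bp wide and stood at 3.10 times. Other peaks of the region on the series lay between 1.94 and 2.44 times. This made it the most uneven of the 11 large regions by its range of folds.

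The region 16994404 to 17004919 was the most fully covered. Its 10 peaks took up 65.6% of 10.5 kb, and their lowest score, 11.3, was above the lowest of each of the other 10 large regions. The strongest peak, 17001402 to 17003179, was also the widest, at 1778 bp and 3.33 times the background (2.81 to 3.91). A peak of 1082 bp in the same region, 16997117 to 16998198, reached 3.10 times (2.60 to 3.67). These intervals overlap.

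The remaining 5 large regions were loosely covered and low. They ran from 544969 to 560877 (12 peaks), 2571720 to 2587259 (11), 5612279 to 5630810 (11), 16789926 to 16800800 (10) and 17476257 to 17499398 (11). Their strongest peaks reached only 2.48 to 2.76 times the background, with intervals that all overlap. Coverage was between 22.3 and 34.8%. The region at 17476257 was the sparsest, with a median gap of 1752.5 bp.

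**Figure D1:**
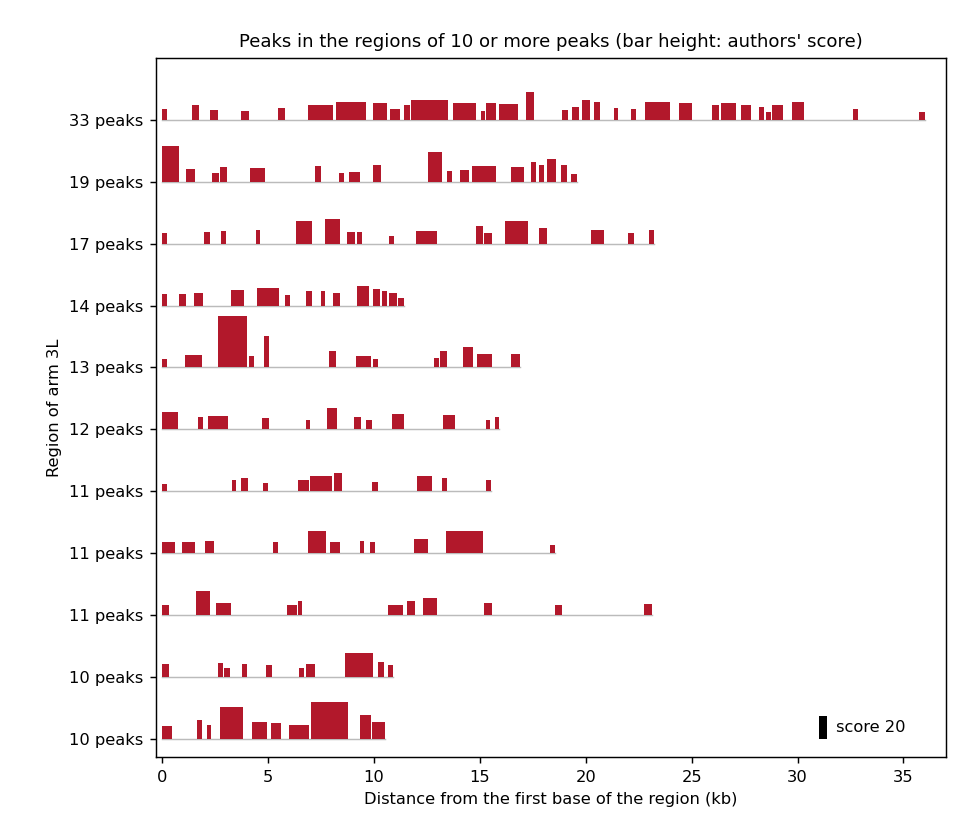
Peaks of the 11 regions of 10 or more peaks on 3L outside the named loci. Each row is a region, the x axis is the distance from its first base in kb, bar width is peak width and bar height the authors' score (scale bar: 20). The top row shows the 33 peaks of 8667807 to 8703846 at scores of 7.03 to 25.7, and the row of 13 peaks has the tallest bar, at a score of 46.0.

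The range of folds was wider in some large regions than in others. In 7 of the 11, the interval of the lowest peak on the series overlapped that of the highest peak on the series. In the other 4, those starting at 8667807, 10658626, 15523231 and 16994404, it did not. The lowest and the highest were picked from all peaks of a region on the series, 25 in that starting at 8667807 and 15 in that starting at 10658626. Extremes of many peaks tend to lie further apart than those of few. Whether heights differed beyond counting error was therefore not tested. Peaks have to pass the authors' threshold to be listed, so the lower end of each range is bounded by it. In 10 of the 11 a single peak had the highest score. It was also the widest in 3 of these 10, and it lay in the middle 50% of the region in 5. In the region from 5612279 to 5630810, the peaks 5619135 to 5619988 and 5625687 to 5627441 tied at a score of 20.17. Over all 109 regions of 2 or more peaks, Spearman's rho of the number of peaks with the highest score was 0.49, and with the median score 0.03. A larger region offers more peaks from which the highest is taken, which bears on the first value. Scores of neighbouring peaks in a region were nearly unrelated in this set, with rho = 0.04 over 408 neighbouring pairs on 3L outside the named loci. With the left-out windows put back, rho on 3L was 0.14. On the other arms together it was 0.15, with 0.25 on 2L, 0.23 on 2R, 0.04 on 3R and 0.04 on X. These correlations are across peaks of 1 list that share libraries, and are given as descriptions.

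Spacing within the regions was short. The median gap was 594 bp (interquartile range 235 to 1382 bp), against 614.5 bp on the other arms (244 to 1349 bp). The shortest gap was 44 bp on both. Of the 408 gaps on 3L, 18.9% were under 200 bp and 66.2% under 1 kb. On the other arms these shares were 19.7% and 65.2% of 1356 gaps. A gap under 200 bp is shorter than the narrowest peak in the set, 201 bp, a width that 27 peaks had. Joining peaks at gaps of up to 200 bp left 585 of the 665 and 7 instead of 11 regions with 10 or more, so the count of peaks in a region depends on how the calling split the signal.

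**Figure D2:**
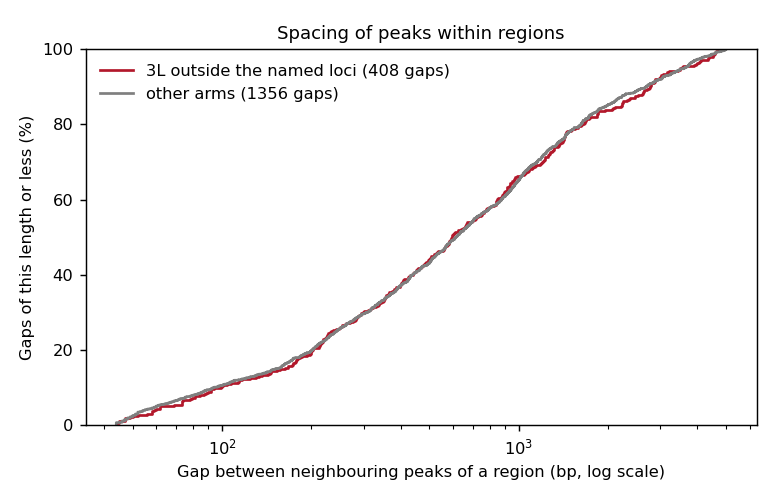
Gaps between neighbouring peaks of the same region, edge to edge in bp on a log axis, as the percentage of gaps of that length or less. The curves of 3L outside the named loci (408 gaps) and of the other arms (1356 gaps) run close together, with medians of 594 and 614.5 bp.

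Of the 10 largest folds, 8 were in regions of 2 to 9 peaks, 1 was isolated and 1 was in a region of 13. In the whole set, regions of 2 to 4 peaks held 179 peaks and regions of 5 to 9 held 177. Another 148 peaks were isolated, and 161 were in regions of 10 or more. The places of the 10 largest folds were not tested against this makeup, so no preference for small regions can be read from them. The highest fold on 3L outside the named loci, 5.51 times the background (4.84 to 6.25), was at 4239830 to 4240382, a 553 bp peak with a score of 94.9. Its only neighbour within 5 kb, 4241227 to 4241499, stood at 2.21 times (1.79 to 2.70). No other peak lay within 121 kb before it.

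The second fold, 5.47 times (4.80 to 6.21), belonged to the widest peak of the set, 3239673 to 3249129, which was 9457 bp long. A peak of 1725 bp followed it after 558 bp, 3249688 to 3251412, at 3.24 times (2.72 to 3.81). A weak peak lay on either side of this pair, 215 and 418 bp wide. The 4 peaks together made a region from 3239257 to 3253339 of which 83.9% was called as peak.

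The other peak over 2 kb wide was 21245872 to 21250507, with 4636 bp and 4.47 times the background (3.86 to 5.14). It was followed by 4 weaker peaks up to 21255526, at 1.85 to 2.44 times. One of these, 21251346 to 21251555, had the second lowest score of the whole set, 6.47. So this region paired one of the broadest and strongest peaks with one of the weakest.

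Other strong peaks were narrower. The peak 8049815 to 8051138 was 1324 bp wide and reached 4.56 times (3.95 to 5.23), at the edge of a region of 8. The peak 14752443 to 14753039 had 597 bp and 4.53 times (3.93 to 5.21), at the end of a region of 4 whose first 2 peaks stood at 3.08 and 2.89 times. The peak 9419796 to 9420149 was 354 bp wide with 4.17 times (3.59 to 4.82) and closed a region of 5. The peaks 18989075 to 18989680 and 3060493 to 3061276 reached 3.99 (3.42 to 4.62) and 3.87 times (3.31 to 4.50), each in a region of 3. Each of the 10 largest folds had an interval that overlaps that of the next in order.

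In some regions a single peak stood clear of the next. In 69 of the 109 regions with 2 or more peaks, the strongest and the next strongest peak were both on the series. In 7 of these 69 the 2 intervals did not overlap, at 3.87 to 5.51 times the background for the strongest and 2.21 to 3.24 times for the next. Those 7 regions held 2 to 5 peaks each. None of the 9 large regions that could be compared in this way was among them. This difference was not tested, and the distance between the highest 2 peaks can depend on how many peaks a region holds.

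**Figure D3:**
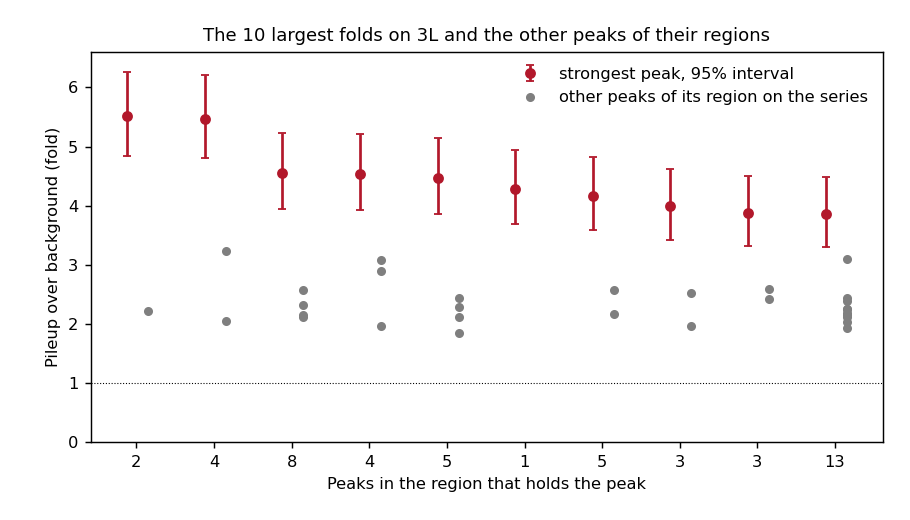
The 10 largest folds on 3L outside the named loci (red, with exact 95% Poisson intervals) and the other peaks of the same region on the series (grey). The y axis is pileup over background, with a dotted line at 1, and the x axis gives the number of peaks in the region. The red points lie between 3.85 and 5.51 and the grey ones at or below 3.24.

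Some strong peaks stood alone. Of the 148 peaks with no neighbour within 5 kb, 6 scored at least 40, or 4.05% (exact 95% interval 1.5 to 8.61%). In regions of 2 to 4, of 5 to 9 and of 10 or more peaks the shares were 3.35%, 2.26% and 0.62%, and over all 665 peaks 2.56%. The interval for the largest regions, 0.016 to 3.41%, overlaps that of isolated peaks. The highest isolated score was at 19583490 to 19583859, 370 bp wide with a score of 76.6, and it was off the series. Next came 22871788 to 22872137, 350 bp wide at 4.28 times the background (3.69 to 4.94), with its nearest neighbour 38.1 kb away. The others named by rank were 618174 to 618682 at 3.83 times (3.27 to 4.45), 13931784 to 13932183 at 3.74 times (3.19 to 4.35) and 9450711 to 9451276 at 3.71 times (3.17 to 4.33). The widths of these 5 peaks were 350 to 566 bp.

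Peaks in larger regions were wider at the median, without a matching order of scores. The median width was 275.5 bp for isolated peaks, 323 bp in regions of 2 to 4, 327 bp in regions of 5 to 9 and 353 bp in regions of 10 or more. On the other arms the same medians were 285, 317, 342 and 369 bp. Median scores on 3L were 11.9, 11.5, 12.4 and 12.2 in that order. Peaks scoring at least 20 made up 12.8% of isolated peaks (exact 95% interval 7.91 to 19.3%) and 9.94% of those in regions of 10 or more (5.79 to 15.6%), intervals that overlap. Across all 665 peaks, Spearman's rho of score with width was 0.54. Width and score come from the same call, so this is a description too.

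**Figure D4:**
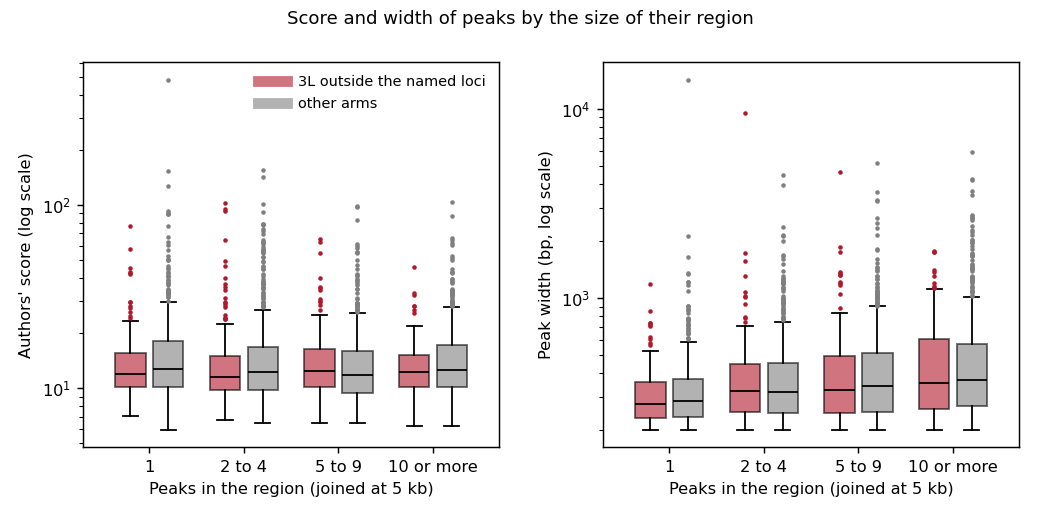
Authors' score (left panel) and peak width in bp (right panel), both on log axes, by the number of peaks in the region, for 3L outside the named loci (red) and the other arms (grey). Boxes span the quartiles with a line at the median, whiskers reach to 1.5 times the interquartile range and dots are peaks beyond. On 3L the median width is 275.5 bp for single peaks and 353 bp in regions of 10 or more, and the median scores are 11.9 and 12.2.

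Broad peaks were a small class. On 3L outside the named loci, 33 of 665 peaks were wider than 1 kb, 4.96% (exact 95% interval 3.44 to 6.90%), against 5.94% on the other arms (4.98 to 7.02%) and 6.43% of all arm peaks. They lay in 24 regions, and 1 of them was isolated, while 14 were in the 11 large regions. Of all 665 peaks, 148 were isolated and 161 were in those regions. The share wider than 1 kb was 0.68% of isolated peaks and 8.70% in regions of 10 or more. On the other arms it was 2.03% and 9.95%, in the same order. Apart from the 2 described above, at 9457 and 4636 bp, none of the 33 exceeded 2 kb. Those 2 alone made up 4.98% of the sequence covered by the set. The next widest were 19893824 to 19895680 (1857 bp, 2.57 times the background, 2.12 to 3.10), in a region of 8 peaks, and 17001402 to 17003179. The 27 broad peaks on the series had a median of 2.80 times the background, and 10 of them reached at least 3 times.

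Peaks in the left-out windows had larger medians of width and score. Of these 149 peaks, 20.1% were wider than 1 kb (exact 95% interval 14.0 to 27.5%), an interval that does not overlap that of the 665. Their median width was 521 bp and their median score 14.8. All 149 had a neighbour within 5 kb. The difference was not tested, and 139 of the 149 came from 5 regions.

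**Figure D5:**
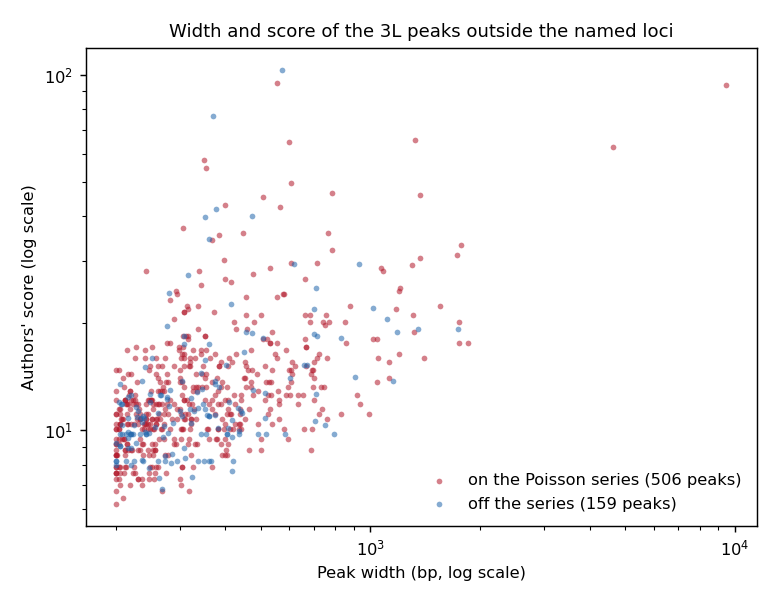
Width in bp and authors' score of the 665 peaks on 3L outside the named loci, both on log axes. Red points (506 peaks) lie on the Poisson series and blue points (159 peaks) off it. The points at the far right are the peaks of 9457 and 4636 bp, and the highest point is an off-series peak with a score of 103.3.

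The share of highly enriched peaks was lower here than on the other arms. Of the 506 peaks on the series, 35 reached at least 3 times the background, 6.92% (exact 95% interval 4.86 to 9.49%). On the other arms 177 of 1625 did, 10.9% (9.42 to 12.5%), and over all arm peaks on the series 10.1%. The intervals touch, the difference was not tested, and peaks within a region are not independent. The other arms also keep their own strong ecdysone-regulated loci, while 5 windows of 3L were removed. With these windows put back, 8.14% of the 3L peaks on the series were at 3 times or more (6.08 to 10.6%). The median score was 11.8 on 3L outside the named loci and 12.2 on the other arms. With the 3L windows put back it was 12.2 on 3L as well.

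Peaks were spread unevenly along 3L. A bin of 1 Mb held a median of 23 peaks (interquartile range 14 to 33). The fullest were 16 to 17 Mb with 86 peaks and 8 to 9 Mb with 61, which together held 22.1% of the set. In windows of 100 kb, 113 of 245 held none of these peaks, of which 4 held peaks of the left-out loci and 109 none at all. Conversely, 22 windows, 8.98%, were enough to hold at least 50% of the peaks. After the window that starts at 16100001, the densest were 8600001 to 8700000 with 33 peaks and 15500001 to 15600000 with 20. The longest stretch without any peak was 1.59 Mb, from 22872137 to 24457224, and it was followed by 0.85 Mb from 21886625 to 22734563. A gap of 0.71 Mb between 17898176 and 18612504 spans 2 of the left-out windows, so it was not empty in the full list. The mappability of these stretches was not examined.

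Beyond the 1.59 Mb stretch, at the proximal end of the arm, lay only a pair of peaks. These were 24457224 to 24457794, with a score of 103.3, the highest of the set, and 24462189 to 24463117, with a score of 29.4. They were 4.39 kb apart, and both were off the series.

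At the distal end, fewer peaks matched the series. From 0 to 2 Mb, 38 of 66 peaks lay on it, 57.6% (exact 95% interval 44.8 to 69.7%), against 78.1% (74.6 to 81.4%) of the 599 peaks beyond 2 Mb. Shares in the other full bins of 2 Mb up to 22 Mb were 72.4 to 89.1%. The bin was chosen after its value was seen, the difference was not tested, and the peaks form 26 regions. Median scores were 11.9 and 11.8. MACS can score a peak against a higher local background, and whether it did so here was not tested.

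The members next to the left-out windows had scores of 7.90 to 17.45. The highest of them, 18612504 to 18612811, was the first after the windows that end at 18070000 and 18450000, and its score was above the upper quartile of the set. The last before 17900000 was 17897773 to 17898176, with a score of 9.77, and 9.86 kb separated it from the first inside, which scored 17.2. After 9396000 the first was 9412652 to 9412857 with a score of 9.02, 18.7 kb from the last inside, which scored 10.9. At 17550000 and 17620000 the peaks on either side were 30047 and 30404 bp apart, and both nearest peaks outside scored 10.45. No gap across a window's edge was under 5 kb, so no region was split by leaving the windows out.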

How the data were processed

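The deposited file is a single peak list with the authors' score for every peak, made with MACS on FlyBase release 5 per the file headers. Per the submitters' processing notes, MACS2, BWA, CASAVA (1.7.0.3 and 1.7.0.2) and BDGP5 are named with no role. For threshold, filters and pooling of replicates, details were not given in the sources used here. Depth is unknown.

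From the list, members were taken by position, joined at 5 kb, and placed on the Poisson series fitted to all 3053 scores. Regions of 10 or more peaks, the 10 highest scores, folds and widths, the 5 highest isolated peaks and the 3 densest windows and longest empty stretches were named by a rule. The other peaks named are their neighbours, or were chosen after their values were seen. Members and lists were chosen with earlier results of these data known. Intervals are exact, at 95%, for counting error only. Procedures were tested on simulated data. Alternatives changed the score limit (top 50% or 25%), the distance (1 or 20 kb), the windows, the tolerance (0.015) or the unit, and joined peaks at 200 bp. Software was matplotlib 3.10.9, scipy 1.17.1, pandas 2.3.3 and numpy 2.4.6 under Python 3.11.15.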

Additional observations from a re-analysis of the deposited data

How the results depend on the processing

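No paired analysis was possible because no value per library is listed, and no replicate could be left out. Of 40 alternative values, 10 stayed within 1.5 times a count or inside the 95% interval of a share or median. In the top 50% of arm peaks by score, 322 peaks remained (665 in all), in 161 regions, 2 of them of 10 or more; 68.3% had a neighbour, the median width was 399 bp, 10.2% were wider than 1 kb, 81.7% lay on the series and the median fold was 2.46. In the top 25% these values were 134 peaks, 98 regions, 0 of 10 or more, 46.3%, 515 bp, 19.4% and a fold of 2.78. With no window left out, 81.8% had a neighbour, the median width was 334.5 bp and 7.74% were wider than 1 kb. At 1 kb, 58.6% had a neighbour, with 395 regions, 4 of 10 or more; at 20 kb, 90.7%, 156 and 21. A tolerance of 0.015 put 81.5% on the series. With 1 value per region, the median of the widest peak was 351 bp and of the highest score 13.7. Joining at 200 bp, added after seeing the data, left 73.7% with a neighbour, 7 regions of 10 or more and 8.55% wider than 1 kb. Each of these settings changes which peaks or units are counted.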
